A study of Oryza sativa with 6 samples.

Results

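The F-box protein genes expressed in mature rice grain were compared between the mutant line sg34 and its wild type, Zhenong 34. A gene was a member when the first name of its deposited description held the word F-box and when at least 3 of the 6 libraries had 1 TPM or more. TPM is a level corrected for transcript length and set against the total of its library. Members were thus chosen by their TPM levels in both lines. Of 55986 rows in the table, 276 carried an F-box first name, and 141 of these passed the level limit. How many rows passed the limit is therefore a description and supports nothing below. Gene names are the deposited descriptions, mostly those of the best Arabidopsis match. Members fell into 25 with kelch repeats, 38 with leucine-rich repeats (LRR) and 78 others. Each line had 3 libraries of grains at the mature period, with messenger RNA libraries made from total RNA. The wild type is labelled as control, and the labels name neither the mutated gene, nor a sequencing batch, nor any treatment beyond the growth stage. Whether a line's libraries came from different plants is not stated either, and the p-values cover the spread among these libraries alone, which may be technical. Where a line's values are listed, they follow the order of replicates 1, 2 and 3.

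F-box proteins are the interchangeable, substrate-binding subunits of SCF ubiquitin ligases. In an SCF ligase, SKP1 links the F-box protein to a cullin scaffold, and a RING-box protein brings the ubiquitin-carrying enzyme, so that the bound substrate is tagged for the proteasome. The repeats behind the F-box, such as kelch or LRR repeats, usually bind the substrate, and plants use F-box proteins as receptors for auxin, jasmonate and strigolactone and as light sensors of the clock. NEDD8, also called RUB, is attached to cullins to activate them, the COP9 signalosome removes it, and CAND1 helps exchange the F-box subunit.

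Markers of endosperm, embryo or aleurone, and green tissue were detected in every library, and 0 of them were listed at 0. Wild type replicate 1 stood apart, with correlations to the other libraries from 0.774 to 0.881. The summed level of 5 endosperm markers was 16600 TPM there, against 37870 and 46250 TPM in the other wild type libraries, and sg34 had 61820 to 67000 TPM. Glutelin GluA1 carried most of this sum in every library but wild type replicate 1, where it had 4333 of 16600 TPM. GluA1 ran from 4333 to 35369 TPM in the wild type and from 42793 to 52722 TPM in the mutant. Wx, the starch synthase of amylose, was also higher in each mutant library. The starch synthesis genes AGPL2 and BT1-1 went the other way without overlap, with means of 2942 and 2975 TPM in the wild type and 1616 and 1815 TPM in the mutant, and were highest in wild type replicate 1. The branching enzyme gene SBE1 overlapped between the lines. The sum of 3 embryo markers ran from 1007 to 5328 TPM in the wild type and from 2841 to 4803 TPM in the mutant, and that of 4 green tissue markers from 5.93 to 125.7 and from 27.0 to 76.1 TPM. The 141 members together took 0.200%, 0.130% and 0.151% of TPM in the wild type libraries and 0.110%, 0.119% and 0.143% in the mutant libraries. These shares overlapped between the lines. A share of TPM also depends on the levels of all other genes in its library. Where a share is lower in such bulk tissue, higher levels of other genes, fewer cells of a type and less RNA per cell cannot be told apart. The part of tissue makeup in the results below was not tested.

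Between the lines, 5 of the 141 members changed: 3 fell and 2 rose in sg34. The genes that fell were an F-box/kelch gene, an F-box/LRR gene and an F-box/FBD/LRR gene, and the genes that rose were a tubby-like gene and a gene with a JmjC domain. In the same limma test at an adjusted p under 0.05, 1.87% of all 16917 tested genes were lower in the mutant and 1.89% higher, 3.76% in all. The members' share of 3.55% in all was close to that background. Of the 5 called genes, 4 were members through 1 line only, since the other line had less than 1 TPM in each library. Such a gene had to differ to be counted, and the number of calls says nothing about the family. Limma's library weights, which give libraries that stand apart less say, called 19 higher and 14 lower members, with 2137 and 1779 calls over all tested genes.

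The F-box/kelch gene LOC_Os11g08830 was the most abundant of the genes that fell. It is described after the Arabidopsis protein At1g74510, and its annotated domains are kelch repeats, with no F-box domain listed. Its level was 36.5, 23.5 and 26.4 TPM in Zhenong 34, a mean of 28.8 ± 6.81 TPM (SD, n = 3), and the gene was listed at 0 in each mutant library. The lines were far apart, and the limma adjusted p was 3.52e-05. In fits that left out each library in turn, the adjusted p stayed between 0.000159 and 0.000893.

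The gene LOC_Os08g09450, described as putative F-box/LRR-repeat protein 23, showed the same pattern at a lower level. It had 4.47, 2.12 and 3.82 TPM in the wild type, and was listed at 0 in the mutant (limma adjusted p = 0.000984). The F-box/FBD/LRR gene LOC_Os06g29710 belongs to a plant family that carries an FBD domain behind the repeats. It had 4.99, 3.22 and 5.28 TPM in the wild type and 0.25, 0.57 and 0.51 TPM in the mutant, and the lines did not overlap. Its log2 difference was -1.62 ± 0.19 (SE) with limma adjusted p = 0.00517. The calls of LOC_Os08g09450 and LOC_Os06g29710 were kept in each fit without 1 library.

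The 2 genes that rose had low levels and less stable calls. Tubby-like F-box protein 2, LOC_Os01g55430, combines an F-box with a tubby domain, known in animals to bind membrane phosphoinositides. It had 0.88, 0.23 and 0.35 TPM in the wild type and 3.67, 1.45 and 2.90 TPM in the mutant. Each mutant library was above each wild type library, with a difference of 1.58 ± 0.30 on the log2 scale (SE, limma adjusted p = 0.0395). LOC_Os11g36450, described after At5g06550, carries a JmjC domain, which is found in histone demethylases and related oxygenases. It had 4.25, 2.76 and 4.39 TPM in the wild type and 4.52, 4.95 and 8.22 TPM in the mutant, so the lines lay next to each other without overlap. Its log2 difference was 0.93 ± 0.18 (SE, limma adjusted p = 0.0446).

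Leaving out 1 library often ended these calls. The limma adjusted p of LOC_Os01g55430 was 0.0652, 0.0910 and 0.140 without wild type replicate 1, 2 or 3, and 0.0609 and 0.109 without mutant replicate 1 or 3. That of LOC_Os11g36450 ran from 0.0603 to 0.185 over the 6 fits that each left out 1 library, so no such fit called it. Without rescaling of the libraries the adjusted p values were 0.101 and 0.383, in the same order. Of 14 alternatives each, 9 and 10 ended the calls.

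**Figure D1:**
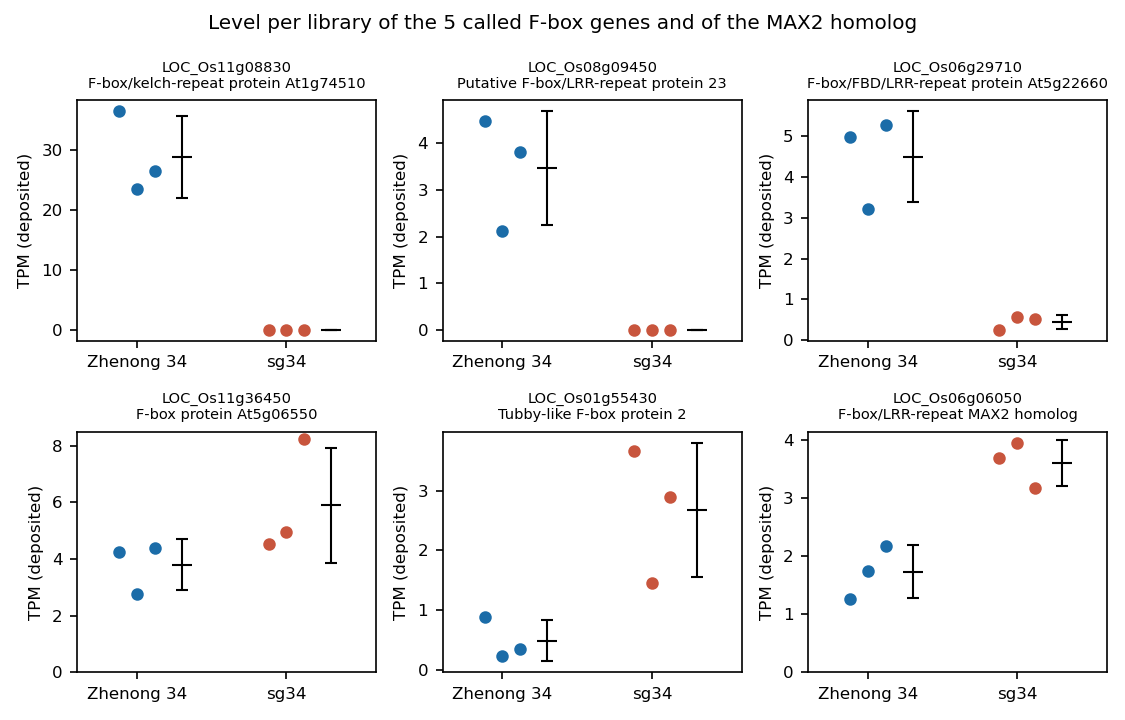
Deposited TPM (vertical axis, linear) of the 5 called F-box genes and of the MAX2 homolog in each library of Zhenong 34 and sg34. Points are libraries, and the bar beside them is the mean with its SD (n = 3). LOC_Os11g08830 and LOC_Os08g09450 are listed at 0 in the 3 mutant libraries, and LOC_Os11g36450 has its closest libraries at 4.39 and 4.52 TPM.

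Members differed widely in level. The mean over the 6 libraries ran from 0.867 to 113 TPM, with a median of 6.12 TPM against 7.28 TPM for all tested genes. Of the members, 46 had a mean of 10 TPM or more and 61 had less than 5 TPM. The most abundant were 2 genes described after the same Arabidopsis protein, At4g00755. LOC_Os03g02560 had 93.2, 126.1 and 76.3 TPM in the wild type and 127.8, 137.3 and 118.9 TPM in the mutant, and LOC_Os03g64360 had 155.2, 114.2 and 108.6 TPM and 80.4, 81.2 and 123.1 TPM. In both genes the lines overlapped. Their log2 differences were 0.92 ± 0.42 and 0.10 ± 0.23 (SE), with limma adjusted p of 0.325 and 0.837. Next in abundance in this class was LOC_Os06g07000, named after At5g67140, with 35.7, 41.9 and 26.4 TPM in the wild type and 57.0, 50.3 and 54.2 TPM in the mutant. The lines did not overlap. The scaled values gave 1.15 ± 0.37 (log2 difference, SE) and did not pass, with limma adjusted p = 0.181. Over the 6 fits without a library the adjusted p ran from 0.0388 to 0.497, and 1 of them, without wild type replicate 2, called the gene.

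**Figure D2:**
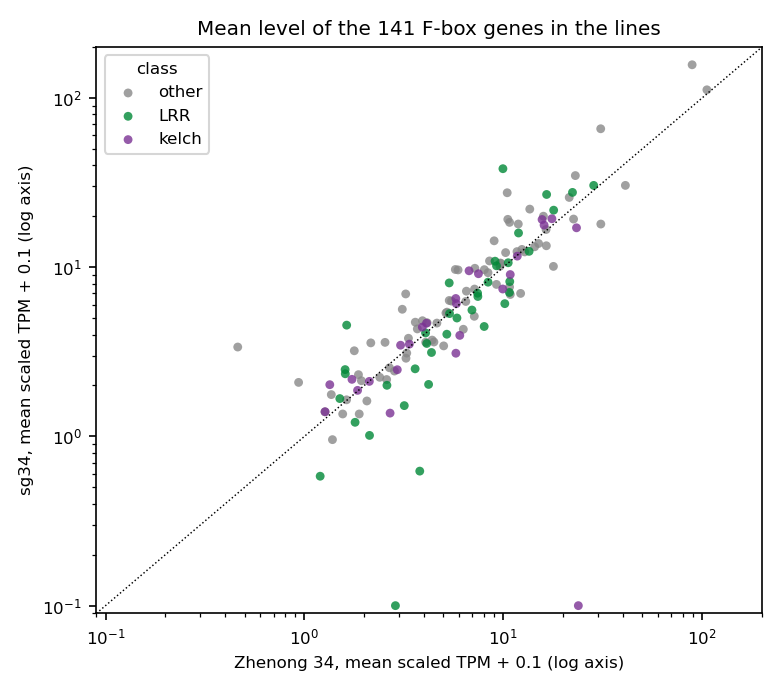
Mean level of each of the 141 members in Zhenong 34 (horizontal) and sg34 (vertical), as TPM scaled between libraries plus 0.1, on log axes. Each point is a gene coloured by class, and the dotted line marks equal levels. Most points lie near that line from about 1 to over 100, and the 2 points at the lower edge are the genes listed at 0 in sg34.

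Most differences were small in all 3 classes, as they were over all tested genes. After scaling, 133 of 141 members had a log2 difference between -1 and 1, and 103 between -0.5 and 0.5. Of the 16917 tested genes, 15268 and 11784 lay within the same limits. The scale of log2(TPM + 1) understates the change of low genes, and 61 members had a mean under 5 TPM. The median was 0.06 over members and -0.01 over all tested genes. Without rescaling the medians were -0.39 and -0.43, so a member's direction is given relative to the scaled libraries. With scaling, 80 members had a positive and 61 a negative difference, and without it 24 and 117. Over all tested genes these counts were 8342 and 8575 with scaling, and 3261 and 13656 without it. The scaled values of the lines did not overlap in 39 members, or 27.7%, against 23.6% of all tested genes. Of these members 19 were higher and 20 lower in the mutant.

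Among kelch members 1 of 25, or 4.0%, was called, LOC_Os11g08830, which fell, against 3.76% of all tested genes called. The median log2 difference of the class was 0.06, or -0.33 without rescaling, and 24 of its 25 members lay between -1 and 1. The 3 most abundant were LOC_Os02g02350 (SKIP4), LOC_Os03g07530 (described after At1g26930) and LOC_Os10g24900 (SKIP30). SKIP names stand for SKP1-interacting partners found in Arabidopsis. LOC_Os02g02350 had 47.4, 16.2 and 27.1 TPM in the wild type and 10.3, 13.1 and 20.7 TPM in the mutant. The lines overlapped, and the log2 difference was -0.42 ± 0.21 (SE, limma adjusted p = 0.365). The deposited values of LOC_Os03g07530 varied little within a line. They were 18.6, 19.5 and 22.3 TPM in the wild type and 15.0, 16.4 and 16.1 TPM in the mutant. After scaling they ran from 11.19 to 22.96 in the wild type and from 15.15 to 21.38 in the mutant. The log2 difference was 0.17 ± 0.29 (SE, limma adjusted p = 0.784) after scaling and -0.32 without it, and the lines overlapped in the scaled values but not in the deposited ones. LOC_Os10g24900 had 27.7, 15.3 and 14.7 TPM and 14.4, 15.2 and 18.1 TPM, with limma adjusted p = 0.492.

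LRR members had 2 called genes of 38, or 5.26%, both lower, against 3.76% of all tested genes called. The class median was -0.11, or -0.57 without rescaling. The scaled values did not overlap in 16 of the 38, of which 6 were higher and 10 lower in the mutant. That is 42.1%, against 23.6% of all tested genes. Of the 5 members that passed the level limit through the wild type alone, 4 were in this class. The count of 16 is thus set in part by the choice of members. The class holds 13 FBD/LRR genes, of which 10 had a negative log2 difference. The median of the FBD/LRR genes was -0.31, and -0.71 without rescaling. The most abundant LRR members were LOC_Os10g35920, LOC_Os11g15620 and LOC_Os11g42160. LOC_Os10g35920, described after At3g48880, had 46.6, 29.5 and 27.4 TPM in the wild type and 20.2, 24.4 and 32.8 TPM in the mutant. LOC_Os11g15620, an FBD/LRR gene, had 25.8, 24.7 and 26.9 TPM and 21.1, 19.0 and 29.98 TPM. LOC_Os11g42160, F-box/LRR-repeat protein 4, had 22.9, 18.7 and 16.5 TPM and 17.99, 22.4 and 27.5 TPM. Deposited values of the lines overlapped in these 3 genes, while the scaled values of LOC_Os11g42160 did not, with a log2 difference of 0.71. The limma adjusted p values were 0.8002, 0.509 and 0.188.

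The highest positive difference among LRR members did not pass the test. LOC_Os08g28940, described after At3g58920, had 6.14, 15.5 and 9.34 TPM in the wild type and 31.7, 33.9 and 27.1 TPM in the mutant. The lines did not overlap, and the log2 difference was 2.04 ± 0.52 (SE) with limma adjusted p = 0.102. LOC_Os08g28940 was picked out from its values. Over the 6 fits without a library the adjusted p ran from 0.0300 to 0.350, and 1 of them, without wild type replicate 2, called it.

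Members outside the kelch and LRR classes had 2 called genes of 78, or 2.56%, both higher, against 3.76% of all tested genes called. Their median log2 difference was 0.09, or -0.34 without rescaling. Of 14 tubby-like rows 13 were members, with a median difference of 0.31, or -0.12 without rescaling, and 1 was called. The 7 PP2 members are named after phloem protein 2, a lectin of the phloem. The PP2 members had differences from -0.43 to 0.74, and 0 were called by limma. At an unadjusted p under 0.05 they also numbered 0, against 17.3% of all tested genes. The scaled values of the lines did not overlap in 3 of the 7, 1 higher and 2 lower, against 23.6% of all tested genes. With 7 genes, such counts cannot set the PP2 members apart from all genes. Members below zero in this class included SKIP23 (LOC_Os02g44990), with 21.2, 10.4 and 13.95 TPM in the wild type and 5.10, 6.01 and 6.04 TPM in the mutant. Its lines did not overlap, and the log2 difference was -0.74 ± 0.18 (SE, limma adjusted p = 0.0865). SKIP14 (LOC_Os04g40910) lay on the other side, with 8.75, 12.9 and 13.0 TPM and 22.9, 24.97 and 18.6 TPM, a difference of 1.37 ± 0.41 (SE, limma adjusted p = 0.151). SKIP23 and SKIP14 were picked out from their values.

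**Figure D3:**
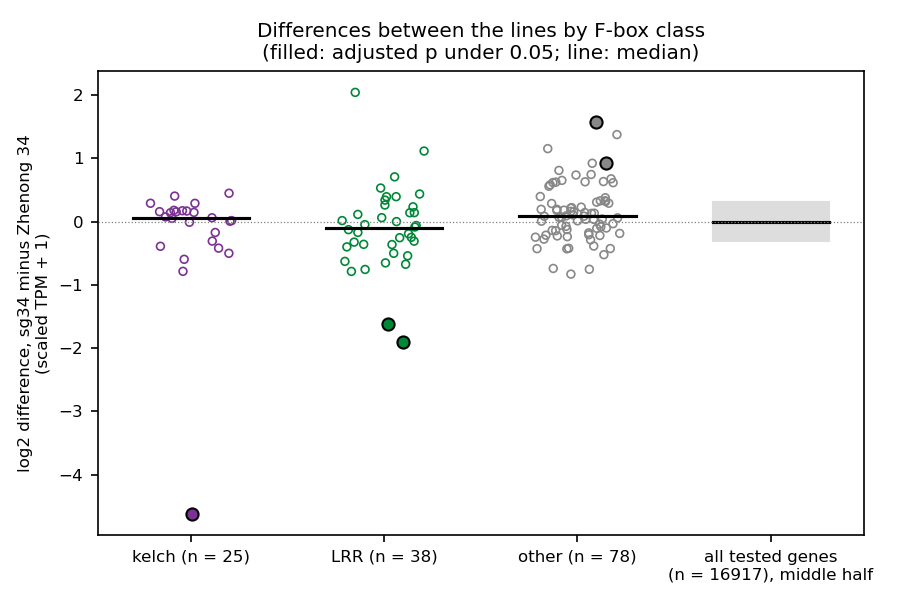
The log2 difference of scaled TPM + 1, sg34 minus Zhenong 34, for each member by class. Each point is a gene, filled points passed the adjusted threshold, black lines are medians, and the grey box runs from the lower to the upper quartile of the 16917 tested genes. The class medians are 0.06 (kelch), -0.11 (LRR) and 0.09 (other) beside -0.01 for all tested genes.

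Members that take part in hormone signalling were detected in both lines. D3 (LOC_Os06g06050), the rice homolog of MAX2, is the F-box protein of strigolactone and karrikin signalling. It had 1.27, 1.74 and 2.18 TPM in the wild type and 3.69, 3.95 and 3.17 TPM in the mutant. Every mutant library was above every wild type library, but the difference, 1.11 ± 0.29 on the log2 scale (SE), had limma adjusted p = 0.110. D14 (LOC_Os03g10620), the strigolactone receptor that binds D3, had 10.7, 3.32 and 5.86 TPM in the wild type and 2.30, 2.66 and 2.73 TPM in the mutant. The log2 difference of D14 was -0.55 ± 0.22 (SE), with limma adjusted p = 0.265. In Arabidopsis, EIN3-binding F-box proteins target the ethylene-response transcription factor EIN3 for breakdown. Of the 2 members with that name, LOC_Os02g10700 had 18.4, 12.2 and 15.5 TPM and 9.61, 10.02 and 10.7 TPM, and LOC_Os06g40360 had 4.84, 2.94 and 5.09 TPM and 3.41, 3.42 and 4.92 TPM. Their log2 differences were -0.06 ± 0.19 and 0.33 ± 0.18 (SE), with limma adjusted p of 0.893 and 0.390.

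Some well known F-box receptors have another first name in the table and are not among the 141. Of 7 such genes tested, 1 rose in the mutant and 0 fell, against 1.89% and 1.87% of all tested genes. FKF1 (LOC_Os11g34460), an Adagio-like blue-light sensor of day length, had 23.0, 11.9 and 21.2 TPM in the wild type and 29.2, 33.1 and 54.9 TPM in the mutant. The lines did not overlap, and the log2 difference was 1.53 ± 0.18 (SE) with limma adjusted p = 0.00549. The call was kept in the 6 fits without a library, and lost without rescaling (log2 difference 1.02, adjusted p = 0.278). Its related clock protein ZTL (LOC_Os06g47890) had 44.9, 33.7 and 50.8 TPM and 24.3, 31.6 and 43.0 TPM, with limma adjusted p = 0.810. The jasmonate receptor genes COI1a, COI1b and COI2 and the auxin receptor genes TIR1 and AFB2 had log2 differences from -0.13 to 0.39 with limma adjusted p from 0.394 to 0.948, and some of these signs turned under other settings.

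A list of SKP1-like, cullin, RING-box, CAND1, NEDD8 and COP9 genes held 1 called gene among 36 tested, which rose, and 0 that fell. Over all tested genes, 3.76% were called. Of the list's 7 cullin genes 3 are cullin-1, the SCF scaffold, and 4 are cullins that serve other ubiquitin ligases. The COP9 signalosome subunit 6a gene LOC_Os12g42730 had 19.5, 11.5 and 13.2 TPM in the wild type and 42.9, 44.7 and 44.4 TPM in the mutant. The difference was 2.05 ± 0.21 on the log2 scale (SE) with limma adjusted p = 0.00280, and from 0.00661 to 0.0259 in the 6 fits without a library. A second row with the same description, LOC_Os08g39070, had 41.5, 10.4 and 20.2 TPM and 6.31, 7.62 and 14.8 TPM, and 8 of 10 COP9 rows had a negative scaled difference. LOC_Os08g39070 was picked out from its values. Reads shared between these copies were not measured, and both values are uncertain. The catalytic subunit gene LOC_Os04g56070 (5b) had 160.0, 45.7 and 65.9 TPM in the wild type and 13.4, 19.6 and 38.8 TPM in the mutant, and its log2 difference was -1.30 ± 0.33 (SE), which did not pass (limma adjusted p = 0.104).

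In this list, the highest mean level, 286 TPM, was that of an adaptor gene. This SKP1-like gene, LOC_Os09g36830, had 654.2, 251.0 and 249.2 TPM in the wild type and 132.3, 167.0 and 264.8 TPM in the mutant, and LOC_Os11g26910 had 213.2, 82.5 and 135.7 TPM and 73.9, 65.4 and 95.4 TPM. The cullin-1 gene LOC_Os01g27150 had 80.6, 83.2 and 76.5 TPM and 65.9, 70.7 and 86.8 TPM. Among 5 SKP1-like, 7 cullin, 2 RING-box, 2 CAND1 and 10 NEDD8 genes, limma called 0, with adjusted p of at least 0.170 and 2 of these 26 genes at an unadjusted p under 0.05. Of 28 tested substrates and partners of hormone and clock F-box proteins, 17 Aux/IAA and 7 TIFY genes among them, limma likewise called 0, and the smallest adjusted p was 0.198. At an unadjusted p under 0.05 the 28 partners held 2 genes. The 26 genes leave out the COP9 genes, of which 3 of 10 were at that level, and the whole list held 5 of 36. The share of all tested genes at that level, 17.3%, was higher than in the 26, 28 and 36 genes. It was lower than in the 10 COP9 genes. Library weights called 3 higher and 5 lower genes over both lists. Median log2 differences were -0.18 for the 36 SKP1 to COP9 genes and -0.01 for the 28 partners, or -0.68 and -0.45 without rescaling.

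**Figure D4:**
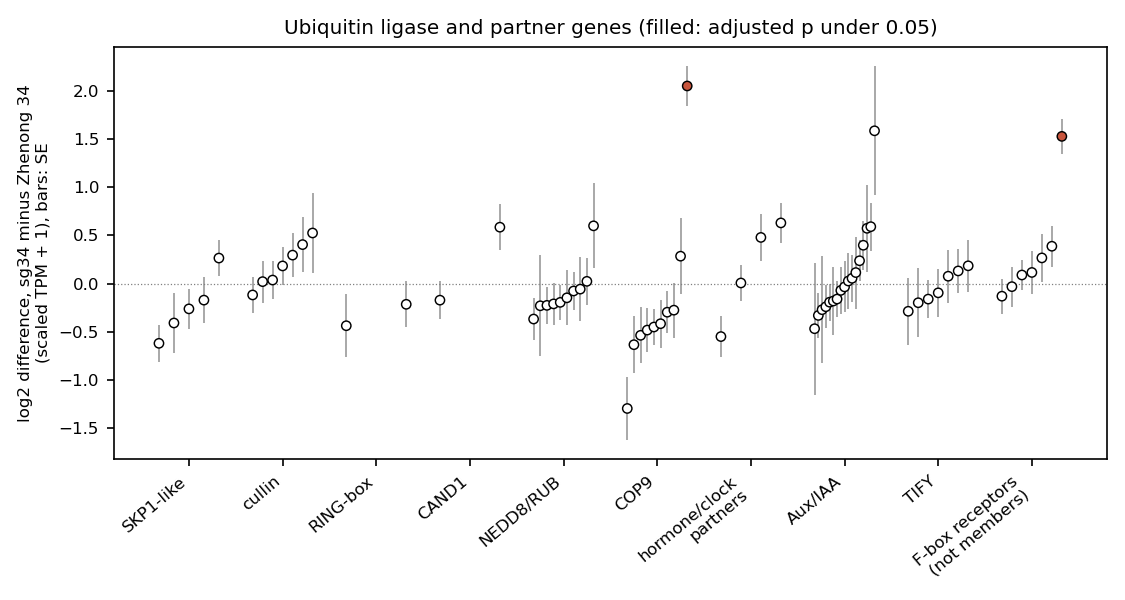
The log2 difference of scaled TPM + 1, sg34 minus Zhenong 34, with its SE, for each tested SKP1, cullin, RING-box, CAND1, NEDD8 or COP9 gene, hormone or clock partner, and F-box receptor outside the member rule. Each point is a gene and filled points passed the adjusted threshold. The filled points are LOC_Os12g42730 in the COP9 group at 2.05 and FKF1 at 1.53.

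The members lay on all 12 chromosomes, with 21 on chromosome 2 and 3 on chromosome 9. The called genes were 2 on chromosome 11 and 1 each on chromosomes 1, 6 and 8. The locus IDs gave the chromosome and the order. The longest run of F-box rows, in which neighbours are at most 200 locus numbers apart, held 14 rows on chromosome 8, from LOC_Os08g09390 to LOC_Os08g09920. Of these 14 rows 10 had an LRR name, and 6 were members. LOC_Os08g09450, described above, was the 1 member of the run that was called, and 5 of the 6 had a negative log2 difference.

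Copies of F-box/LRR-repeat protein 23 within this run differed in level. LOC_Os08g09670 had 14.3, 7.90 and 11.1 TPM in the wild type and 7.97, 8.44 and 10.7 TPM in the mutant (limma adjusted p = 0.467), while LOC_Os08g09640 had 2.27, 1.37 and 3.79 TPM and 0.85, 0.48 and 0.97 TPM (limma adjusted p = 0.280). At the other end, LOC_Os08g09920, described after At3g28410, had 5.59, 2.57 and 3.48 TPM in the wild type and 0.85, 1.01 and 1.86 TPM in the mutant. Its lines did not overlap, and the log2 difference was -0.76 ± 0.17 (SE, limma adjusted p = 0.0726). LOC_Os08g09760 and LOC_Os08g09910 had log2 differences of -0.50 and -0.25 and were not called. Reads could be split among copies of the same description, which makes the value of each copy uncertain.

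Genes between the F-box rows of this run were also called, in both directions. Of 13 tested rows from the first to the last F-box row, 3 were lower and 3 higher in the mutant. Over all tested genes, 1.87% were lower and 1.89% higher. Besides LOC_Os08g09450, the lower rows were LOC_Os08g09420 and LOC_Os08g09610. LOC_Os08g09420 has an empty description, but its nearest protein match is F-box protein-like. It had 11.3, 6.51 and 11.2 TPM in the wild type and 1.57, 2.04 and 2.07 TPM in the mutant. Its log2 difference was -1.44 ± 0.19 (SE, limma adjusted p = 0.00744, or 0.0503 without mutant replicate 1). LOC_Os08g09700 also has an empty description, with an F-box/LRR-repeat protein as nearest match. It had 38.3, 59.1 and 48.5 TPM in the wild type and 39.45, 36.7 and 48.1 TPM in the mutant. The lines overlapped (log2 difference 0.30, limma adjusted p = 0.710). The higher rows included the glycolate oxidase gene LOC_Os08g09860, listed at 0 in the wild type and at 25.1, 24.5 and 33.4 TPM in mutant replicates 1, 2 and 3. The other higher rows, LOC_Os08g09820 and LOC_Os08g09870, had log2 differences of 1.97 ± 0.25 and 1.40 ± 0.26 (SE, limma adjusted p = 0.00646 and 0.0367), and the second call was lost in 5 of the 6 fits without a library. The run and its neighbours were singled out after their values were seen.

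**Figure D5:**
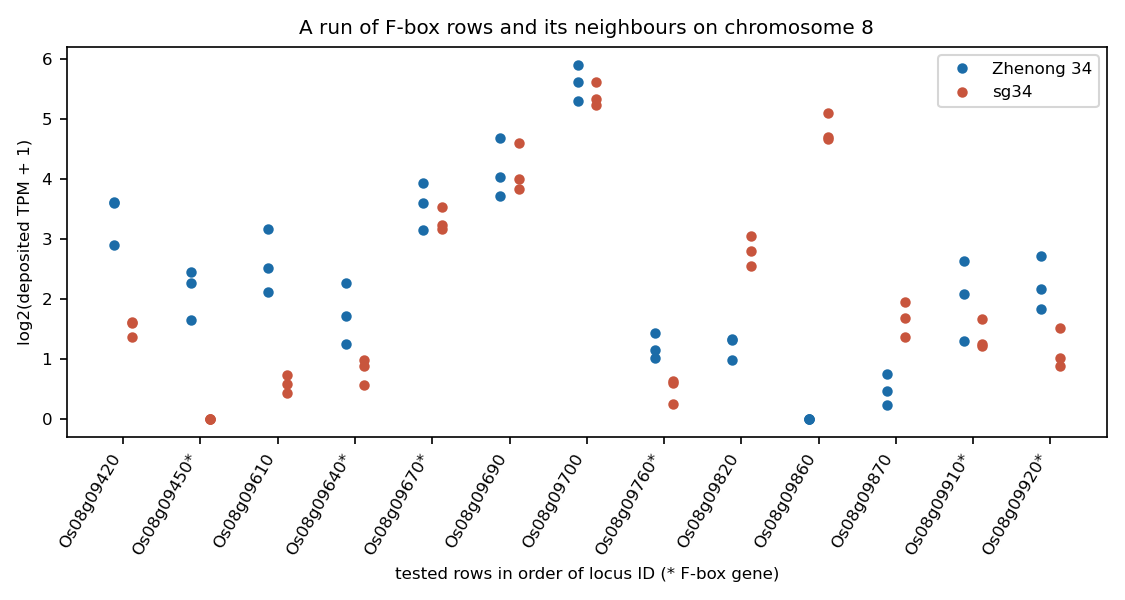
Level of the 13 tested rows in the run of F-box rows on chromosome 8, as log2(deposited TPM + 1), in locus order, with F-box members starred. Each point is a library. LOC_Os08g09450 is at 0 in sg34 and LOC_Os08g09860 at 0 in Zhenong 34, while LOC_Os08g09670 overlaps between the lines.

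Among the other called members, 3 of 4 had 1 called gene among 10 neighbours, the 5 tested rows on either side. Over all tested genes, 3.76% were called. That is a share per gene, to be set against 1 of 10 and not against 3 of 4. Beside LOC_Os11g08830, the RNA polymerase subunit 10-like gene LOC_Os11g08940 was lower, with 155.3, 57.0 and 85.3 TPM in the wild type and 6.01, 7.11 and 18.04 TPM in the mutant (limma adjusted p = 0.00367). Near LOC_Os06g29710, the inositol phospholipid synthesis gene LOC_Os06g29650 was listed at 0 in the mutant and at 2.35, 2.15 and 2.81 TPM in the wild type. Near LOC_Os01g55430, which rose, the phosphoenolpyruvate carboxylase gene LOC_Os01g55350 fell by 2.09 on the log2 scale (limma adjusted p = 0.00101). LOC_Os11g36450 had 0 called neighbours of 10 by limma. At an unadjusted p under 0.05, against 17.3% of all tested genes, it had 4 of 10, LOC_Os08g09450 had 5, LOC_Os06g29710 had 3, and LOC_Os11g08830 and LOC_Os01g55430 had 2 each.

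Genes with the same description often differed in level. Of the members, 57 shared a first name with another member, under 25 names, and in 15 of these names log2 differences had both signs. The widest range of levels was among the 4 genes named PP2-A13, whose highest mean TPM was 31.9 times the lowest. LOC_Os10g37830, the most abundant PP2-A13 gene, had 74.3, 35.2 and 45.1 TPM in the wild type and 24.7, 20.7 and 31.1 TPM in the mutant, and LOC_Os04g48270, the least abundant, had 1.19, 1.03 and 1.93 TPM and 0.75, 1.75 and 0.60 TPM. The lines did not overlap in the deposited values of the first and overlapped in the second, and limma called neither. An F-box or F-box-like domain was annotated in 109 of the 141 members, in 17 of 25 kelch, 29 of 38 LRR and 63 of 78 other members.

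The classes also differed in how many of their rows reached the level limit, given as a description. Members were 25 of 35 kelch rows, 38 of 102 LRR rows and 78 of 139 others, which included 13 of 14 tubby-like and 3 of 15 FBD-associated rows. Nearest to the limit inside was LOC_Os08g09760, whose 3 highest libraries reached at least 1.03 TPM, and outside LOC_Os04g13160, with 0.99 TPM in the same place. LOC_Os04g13160 had 1.95, 0.99 and 2.81 TPM in the wild type and 0.57, 0.24 and 0.24 TPM in the mutant.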

How the data were processed

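The members, gene lists and tests were chosen with earlier results of these data known. The authors deposited 1 table of TPM values per gene, with their mean per line. The submitters' processing notes name Bowtie2, HISAT2 2.1.0, RSEM, StringTie and DESeq2 1.12.4, with no role or order. They also name the mouse build mm10, which cannot hold these rice loci, so the rice build is not given in the sources used here. Mutant columns were matched to sg34 libraries by line and replicate number. TPM keeps no read depth, so the depth behind each value is unknown and no counting interval is given. TPM was scaled between libraries with unweighted TMM factors (30% of ratios and 5% of levels trimmed), taken as log2(TPM + 1) and fitted with limma 3.58.1 in R 4.3.3 with a mean-variance trend. A difference is sg34 minus wild type on this scale and understates the change of low genes. Rows with 1 TPM or more in at least 3 libraries were tested, with Benjamini-Hochberg adjustment over all of them and a threshold of 0.05. The procedure was tested on simulated data with changes placed only in the more abundant genes. Changes in genes as low as most called members were not covered. Named by rule were all called members, the 3 most abundant of each class and listed hormone and clock genes. FKF1, the partner genes given by locus, the run on chromosome 8 and the neighbours were named after their values were seen, as were the PP2-A13 genes. An exact permutation test of 3 against 3 libraries cannot go below 0.1, so none was used. Alternatives changed the scaling, pseudocount, filter, variance model, library weights, replicate block, membership rule and libraries. No sequence is printed, since the tables used here pair none with these loci.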

Additional observations from a re-analysis of the deposited data

How the results depend on the processing

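The count of higher members, 2 in the report, was 0 without rescaling, with a limit of 5 TPM or with the replicate block, and 1 with upper-quartile factors, a pseudocount of 5 or no filter. Without 1 library it ran from 0 to 2. The 3 lower members became 1 with the limit of 5 TPM, which left 79 members in the test. The called genes LOC_Os08g09450, LOC_Os06g29710, LOC_Os01g55430 and LOC_Os11g36450 did not reach that limit and were not tested there. Library weights gave 19 higher and 14 lower members, of which 5 were the reported calls. For kelch they gave 1 higher and 2 lower, for LRR 4 and 8, for the other class 14 and 4, for the SKP1 to COP9 and partner lists 3 and 5, and for all genes 2137 and 1779. LRR calls were otherwise 1 higher with no filter and 0 to 1 without 1 library, and 0 lower with the 5 TPM limit. Higher calls of the other class were 0 without rescaling, with no filter and with the 5 TPM limit, 1 with upper-quartile factors or a pseudocount of 5, and 0 to 1 without 1 library, and lower calls 0 to 1. Over all genes, 320 higher and 316 lower calls became 129 and 147 with the 5 TPM limit, 186 higher without rescaling, and 165 to 364 and 155 to 370 without 1 library. The median of members was -0.39 without rescaling. Counting any F-box name gave 146 members and the same calls. The cause of the other changes was not tested.

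With the replicate block, 131 higher and 123 lower genes were called, and 0 higher members, 1 lower LRR member and 0 higher members of the other class. Calls lost there were those of LOC_Os06g29710 (adjusted p = 0.0521, limma), LOC_Os01g55430 (0.0866), LOC_Os11g36450 (0.189), FKF1, LOC_Os11g34460 (0.0622), LOC_Os08g09420 (0.0863), LOC_Os08g09820 (0.0678), LOC_Os08g09870 (0.0644) and LOC_Os06g29650 (0.063). Same-numbered libraries did not deviate together (correlations -0.541, 0.0032 and -0.368), and 0 of 3 numbers correlated best with their own. With deviations taken from means of 3 libraries per line, these correlations cannot decide whether the numbers pair the libraries.

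Without rescaling, log2 differences turned to -0.113 (LOC_Os01g27150), -0.0454 (LOC_Os01g63420), -0.324 (LOC_Os03g07530), -0.351 (LOC_Os03g15880), -0.417 (LOC_Os03g64360), -0.253 (LOC_Os04g48270), -0.334 (LOC_Os05g05700), -0.152 (LOC_Os05g05800), -0.0934 (LOC_Os06g40360), -0.395 (LOC_Os06g47890), -0.247 (LOC_Os08g09670), -0.21 (LOC_Os10g24900), -0.394 (LOC_Os10g35920) and -0.163 (LOC_Os11g15620). That of LOC_Os04g32460 turned to 0.0909 with library weights. Signs also turned on leaving out 1 library, with ranges of -0.142 to 0.0848 (LOC_Os02g10700), -0.0917 to 0.387 (LOC_Os03g07530), -0.00797 to 0.289 (LOC_Os03g64360), -0.137 to 0.13 (LOC_Os04g32460), -0.257 to 0.286 (LOC_Os04g48270), -0.0654 to 0.226 (LOC_Os06g47890) and -0.0422 to 0.265 (LOC_Os10g35920). None of these genes was called in the report.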

Other observations

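Of the F-box rows, 135 did not reach the level limit. Among these, 40 were listed at 0 in every library, 106 stayed under 1 TPM in every library, and 29 had 1 TPM or more in 1 or 2 libraries. Such a library was wild type replicate 1 for 22 of the 29 rows, replicate 3 for 19 and replicate 2 for 1, and a mutant library for 7. The limit was set on deposited TPM, before scaling. Scaling divided wild type replicates 1, 2 and 3 by 1.66, 0.85 and 1.22, and the mutant replicates by 0.70, 0.77 and 1.07. The part of these factors in the counts was not tested. The F-box/LRR-repeat protein 14 row LOC_Os12g33230 had 4.23, 0.68 and 1.75 TPM in the wild type and 0.04, 0.05 and 0 TPM in the mutant.

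Rows with F-box in a later name only included the actin-related protein 8 gene LOC_Os04g57210. It had 4.31, 5.43 and 5.59 TPM in the wild type and 3.26, 6.79 and 4.20 TPM in the mutant. ARABIDILLO 1, LOC_Os10g41360, had 10.5, 7.35 and 10.1 TPM and 5.34, 7.25 and 6.59 TPM. The limma adjusted p values of these genes were 0.693 and 0.983. The floral organ gene APO1, LOC_Os06g45460, was listed at 0 in 5 libraries and at 0.1 TPM in mutant replicate 2.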
